A study of Mus musculus with 8 samples.

Results

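Uterine stroma is the connective tissue under the epithelium of the uterus, and it answers estradiol, the main ovarian estrogen, through changes in many transcripts. The difference examined here is between the estradiol response of stroma without the autophagy gene Atg7 and the estradiol response of control stroma. It was computed for each gene as (deleted, estradiol minus deleted, oil) minus (control, estradiol minus control, oil) on the log2 scale, so a negative value means that estradiol raised the gene less, or lowered it more, without Atg7. All 8 libraries of the series enter it, 2 in each of 4 groups.

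Every library came from uterine stromal cells of ovariectomized (OVX) mice of the strain C57BL/6-ICR, which lack ovarian hormones unless these are injected. The control groups had the genotype Atg7f/f, in which Atg7 is floxed and intact, and received oil or estradiol (E2). The deleted groups are labelled Atg7d/d, which the series gives as Atg7f/f;Amhr2cre, and also received oil or estradiol. Cre recombinase is driven by the Amhr2 gene, which reproductive tract mesenchyme expresses, so the deletion is directed at that mesenchyme and its descendants. No group carried Cre with Atg7 intact, so an effect of Cre cannot be told apart from an effect of the deletion. The dose, the time after injection, the age of the mice and the way stromal cells were separated are not given in the labels. The labels do not tie the 2 libraries of a group to different animals, and p-values therefore reflect only library-to-library spread, which may be technical.

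Estradiol binds the estrogen receptor in stroma and epithelium, and in the uterus it is known for early vascular and transcription factor responses followed by growth, cell division and synthesis of matrix. Autophagy encloses cytoplasm in membrane and delivers it to lysosomes, and ATG7 is the enzyme that activates LC3 and ATG12 for this process. Cells entering division switch on DNA replication genes before mitosis genes, which encode the kinases, cyclins, motor proteins and ubiquitin ligase subunits that separate the chromosomes.

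Library totals ran from 5458390 to 6951080 counts, and 13347 genes had enough reads to be tested. Agreement between replicates was lowest in control oil, where 14.9% of genes lay more than 2-fold apart, against 5.16% to 7.38% in the other groups. Markers of epithelium were high in the oil libraries, and their levels are given beside the results below. Fibroblast markers such as Col1a1 were present in all 8 libraries, with no marker of that list at 0 in any of them.

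The estradiol response was broadly shared by the genotypes, and no single gene passed the test for a different response. Estradiol raised 2107 genes and lowered 1871 in control stroma (15.8% and 14% of genes tested), and it raised 1746 and lowered 1496 in Atg7-deleted stroma (13.1% and 11.2%), at an adjusted p below 0.05 in the quasi-likelihood test of edgeR. Of the 2699 genes called in both genotypes, all 2699 were called in the same direction. Across all tested genes the 2 responses correlated with r = 0.867, which is a description across genes and not across replicates, and these responses share no library. The calls within a genotype depend on both estradiol libraries: without control estradiol library 1 or 2 the control calls were 1505 and 1928, and without deleted estradiol library 1 or 2 the deleted calls were 740 and 1065. Leaving out deleted oil library 1 or 2 gave 1289 and 1634 deleted calls.

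**Figure D1:**
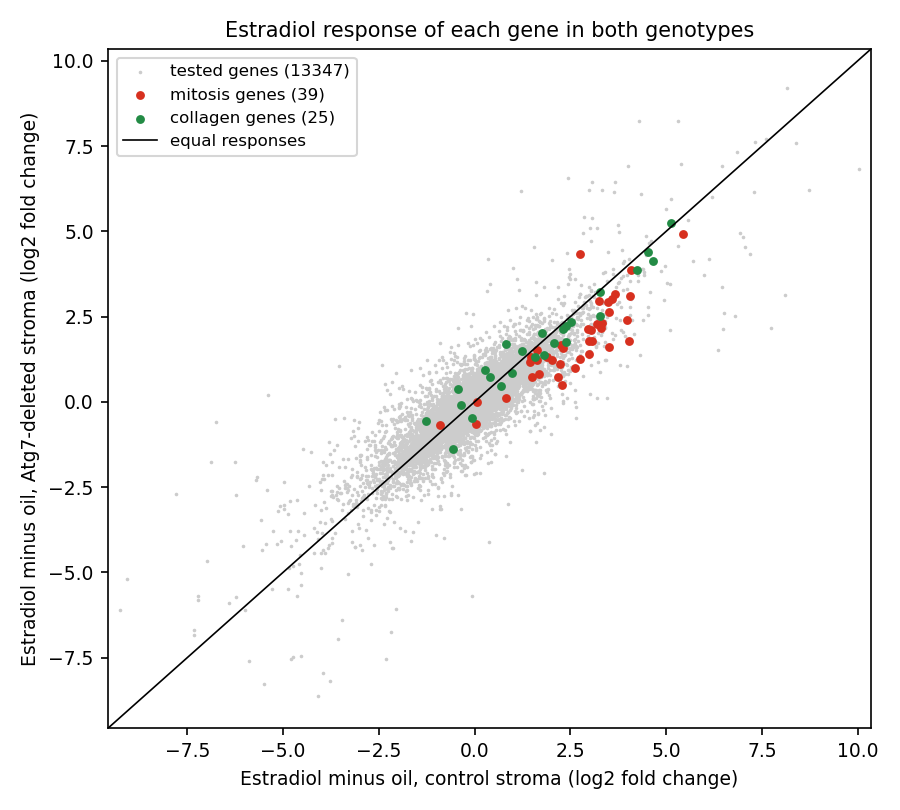
Estradiol response of each tested gene as log2 fold change in control stroma (horizontal axis) and in Atg7-deleted stroma (vertical axis), with the line of equal responses. Most of the 39 mitosis genes (red) lie to the right of the line and below it, at a median of 2.76 in control and 1.60 in deleted stroma, while the 25 collagen genes (green) lie along it.

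For the difference itself, edgeR called 0 of 13347 genes (0%), with an adjusted p of 0.9999 for every gene, and DESeq2 and limma also called 0. An unadjusted p below 0.05 was reached by 118 genes with a lower response in deleted stroma (0.884%) and 92 with a higher response (0.689%), together 210 genes or 1.57%, and by 138 genes in DESeq2. Without control oil library 1 or 2 the number was 468 and 999, and with a mean of at least 10 CPM required it was 90. The median standard error of a difference was 0.41 on the log2 scale, and 6.86% of genes differed by more than 1 log2 unit either way. A second description needs no model: for 818 genes (6.13%) each of the 4 estradiol minus oil pairings of deleted libraries lay below each of the 4 of control libraries, and for 657 genes (4.92%) above. Below 0 were 51.1% of the differences and above 0 were 48.9%, around a median of -0.01. The values that follow are therefore estimates with their errors, and counts of list members stand beside these shares. The 1.57% of genes under an unadjusted p of 0.05 is below the share expected at that threshold if no gene differed.

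Among 33 lists of genes by function, the mitosis list had the lowest median difference. Estradiol raised 36 of 39 tested mitosis genes in control stroma and 25 of 39 in deleted stroma (against 15.8% and 13.1% of all genes), and lowered none in either. The median difference was -0.79 (quartiles -1.17 and -0.50) against -0.01 over all tested genes, and 37 of 39 members lay below 0. An unadjusted p below 0.05 with a lower response was found for 10 members, or 25.6%, against 0.884% of all genes, and for none with a higher response. Among genes with a mean of at least 10 CPM over all libraries, fitted alone, 5 mitosis genes did so. That filter leaves out members of lower level, so this count cannot be set against the 10 of 39. Response ranges lay apart and lower for 18 members, or 46.2%, against 6.13% of all genes, and apart and higher for none. Of the 40 genes listed only Cdc25c had too few reads to be tested.

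**Figure D2:**
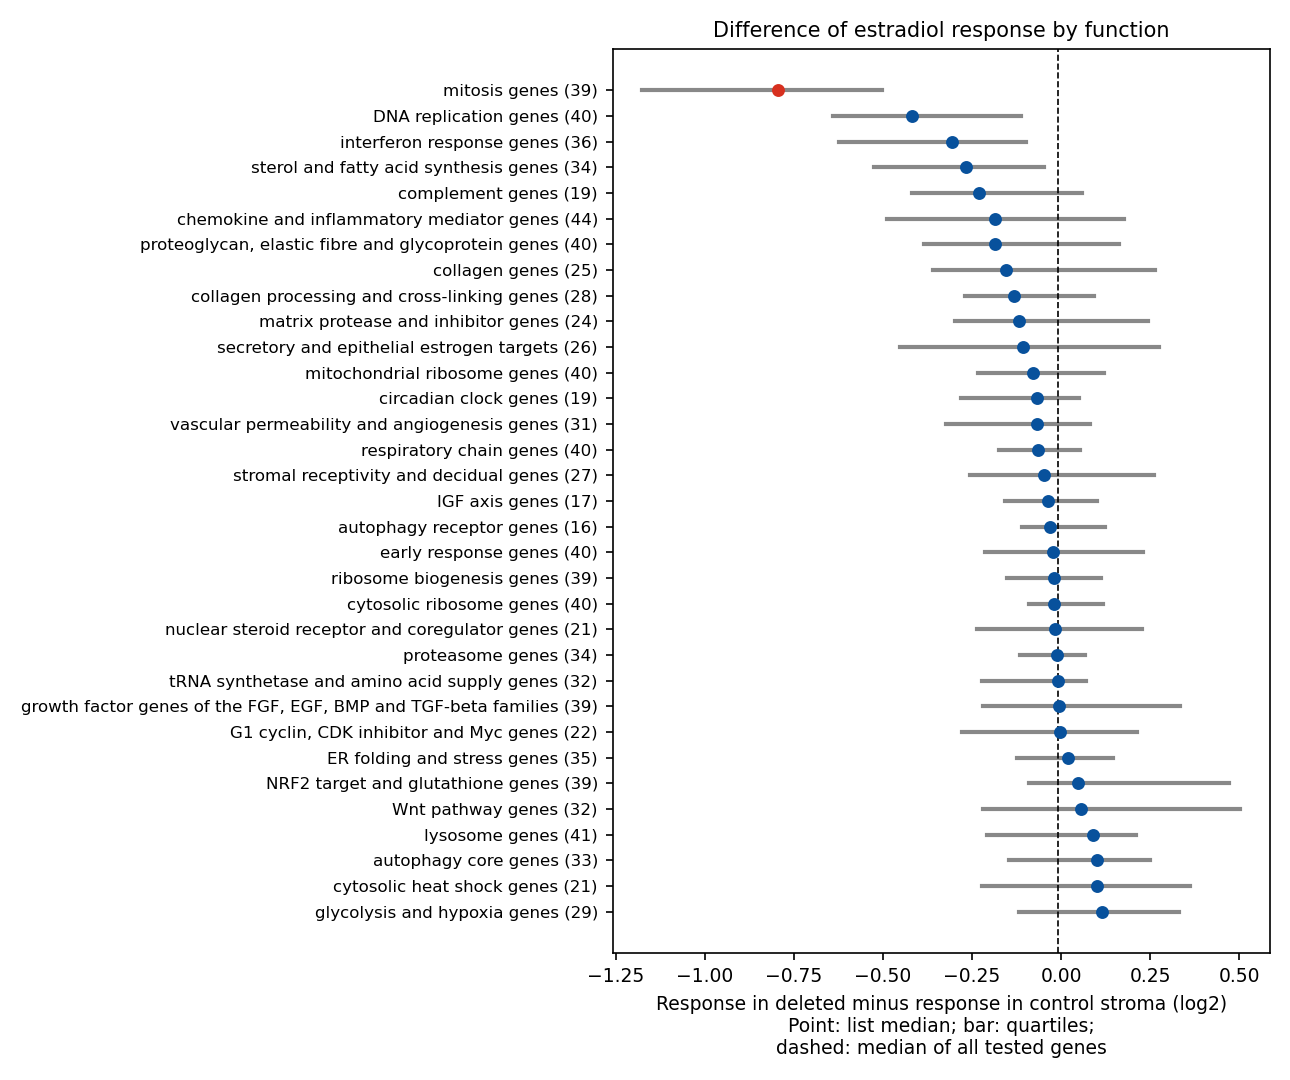
Median (points) and quartiles (bars) of the difference of estradiol response for 33 function lists, with the number of tested members in brackets and the median of all tested genes as a dashed line. The mitosis list lies lowest at -0.79, DNA replication follows at -0.42, and the highest list median is 0.11, for glycolysis and hypoxia genes.

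Promoter sequence of the mitosis genes was read because late cell cycle promoters are known to carry a paired arrangement of CCAAT boxes and the cell cycle genes homology region, and the list's members moved together after estradiol. In the 250 bases before the start in RefSeq (GRCm38.p6), 33 of the 39 genes had 35 windows. The letters TTTGAA, read on both strands, stood in 14 of these windows (40%) against 16% of all 32851 windows, and CCAAT, read on both strands, stood in 27 (77.1%) against 33.8%. Both stood in 13 windows (37.1%) against 5.55%, and in 0 windows did the letters of the motifs overlap. For DNA replication genes the shares were 10.8%, 54.1% and 8.11% of 37 windows. They were 6.67%, 63.3% and 3.33% of 30 windows for sterol and fatty acid synthesis genes. For interferon response genes they were 10.3%, 41% and 5.13% of 39 windows. A match is a description of the letters and not a site of binding. These motifs are known for mitosis genes, so their shares say nothing about the difference of estradiol response.

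The windows of 4 of the mitosis genes with the smallest p-values are shown, each as the 120 bases before the start, with TTTGAA or TTCAAA and CCAAT or ATTGG in capitals. They lie at chr10:69352913-69353032 on the minus strand for Cdk1, chr2:164769809-164769928 on the plus strand for Ube2c, chr11:99024190-99024309 on the minus strand for Top2a and chr15:99651657-99651776 on the minus strand for Racgap1.
Cdk1: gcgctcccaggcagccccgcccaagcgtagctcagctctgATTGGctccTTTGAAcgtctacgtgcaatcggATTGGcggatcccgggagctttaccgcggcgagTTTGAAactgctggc
Ube2c: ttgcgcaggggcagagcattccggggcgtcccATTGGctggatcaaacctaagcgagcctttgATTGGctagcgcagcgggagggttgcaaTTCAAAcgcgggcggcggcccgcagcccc
Top2a: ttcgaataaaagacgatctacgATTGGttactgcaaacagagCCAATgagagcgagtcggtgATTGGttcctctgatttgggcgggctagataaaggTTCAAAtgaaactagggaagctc
Racgap1: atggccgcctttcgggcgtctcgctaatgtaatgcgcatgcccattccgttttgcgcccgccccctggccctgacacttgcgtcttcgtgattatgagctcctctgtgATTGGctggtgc
Cdk1, Ube2c and Top2a hold both motifs in this window, while Racgap1 holds CCAAT letters only.

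Cdk1 (chromosome 10, 69335146 to 69352938, minus strand, mm10) encodes the kinase that drives entry into mitosis. Its level was 8.83 and 7.08 CPM (counts scaled to a common library size) in control oil, 14.5 and 16.5 in deleted oil, 114 and 137 in control estradiol, and 67.8 and 95.3 in deleted estradiol. The deleted libraries were thus above both control libraries in oil and below both after estradiol, with no overlap in either treatment. The response was 3.97 ± 0.26 (log2 ± SE) in control and 2.39 ± 0.24 in deleted stroma, a difference of -1.58 ± 0.33 (edgeR, unadjusted p = 0.00103, adjusted p = 0.9999).

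Ube2c (chromosome 2, 164769898 to 164778822, plus strand) encodes the ubiquitin-conjugating enzyme of the anaphase-promoting complex, which ends mitosis. It stood at 3.94 and 3.72 CPM in control oil, 6.32 and 6.14 in deleted oil, 37.6 and 50.3 in control estradiol, and 14.9 and 22.8 in deleted estradiol. The order of the groups was that of Cdk1, again with no overlap, and the difference was -1.91 ± 0.41 (unadjusted p = 0.00122).

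Top2a (chromosome 11, 98992943 to 99024189, minus strand), the topoisomerase that untangles chromosomes, had 13.7 and 10.4 CPM in control oil and 19.8 and 20.6 in deleted oil. After estradiol it had 88.1 and 104 CPM in control and 62.6 and 75.9 in deleted stroma, and the difference of response was -1.21 ± 0.30. Racgap1 (chromosome 15, 99620496 to 99651656, minus strand), which organises the central spindle for cytokinesis, had 2.52 and 2.48 CPM in control oil, 3.63 and 4.73 in deleted oil, 19.1 and 21.1 in control estradiol, and 9.90 and 12.1 in deleted estradiol. For Racgap1 the difference was -1.60 ± 0.42. Both genes repeated the order of Cdk1, with deleted libraries higher in oil and lower after estradiol.

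**Figure D3:**
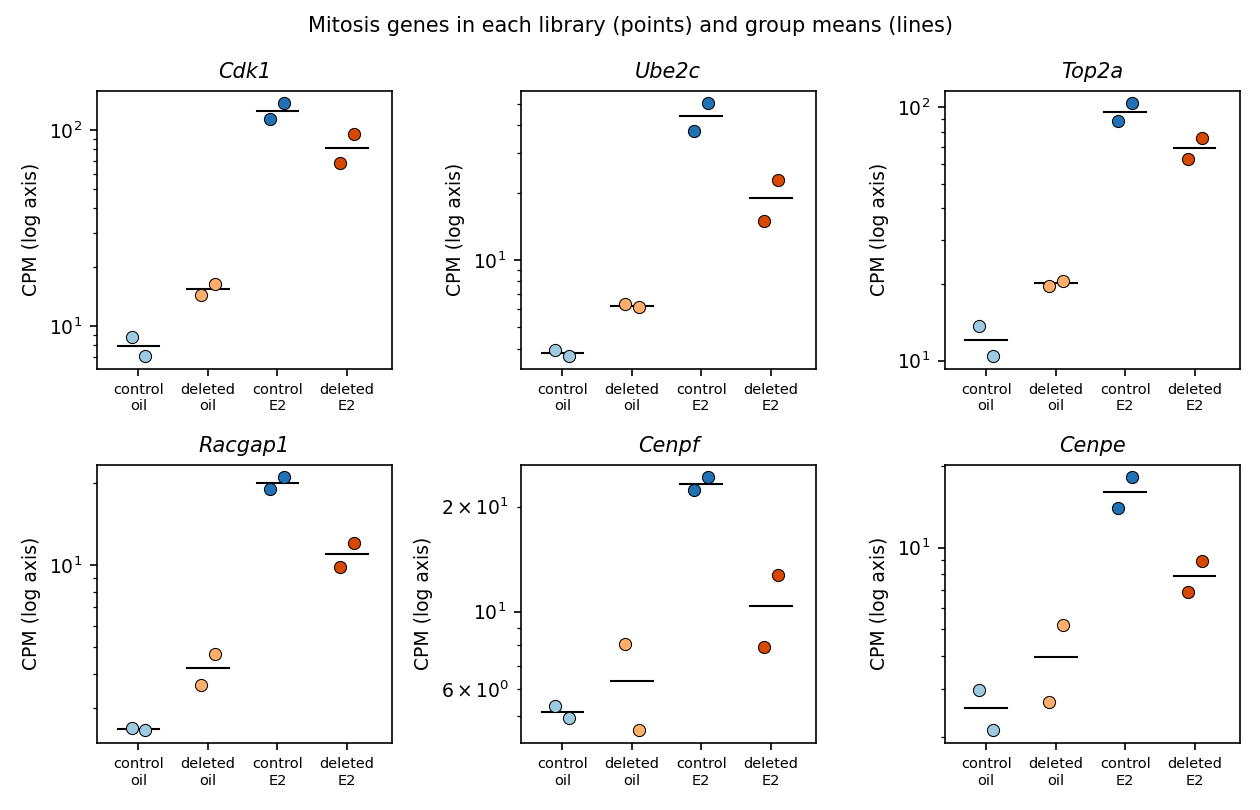
Levels of 6 mitosis genes in CPM on log axes, with a point for each library and a line for each group mean. In each panel the 2 deleted estradiol libraries lie below the 2 control estradiol libraries, for example at 67.8 and 95.3 against 114 and 137 CPM for Cdk1.

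The other 6 mitosis genes under an unadjusted p of 0.05 were named after their values were seen, because they complete that count. The kinetochore proteins Cenpf and Cenpe had differences of -1.46 ± 0.50 and -1.64 ± 0.56. Cenpf stood at 22.3 and 24.3 CPM in control estradiol and at 7.92 and 12.8 in deleted estradiol, and its oil libraries, between 4.57 and 8.06 CPM, overlapped between genotypes. Cdc20, the activator of the anaphase-promoting complex, differed by -1.79 ± 0.67, and the mitotic cyclin Ccnb2 by -1.49 ± 0.62. The condensin subunit Ncapg differed by -2.24 ± 0.95, from 1 to 8 reads in each oil library. Pttg1, the securin that holds sister chromatids together until anaphase, differed from the rest of this group in that estradiol did not raise it in control stroma. Pttg1 had 35.0 and 30.6 CPM in control oil, 37.3 and 32.9 in deleted oil, 30.3 and 36.9 in control estradiol and 19.6 and 24.7 in deleted estradiol, so only the deleted estradiol libraries lay below the others. Its difference was -0.69 ± 0.30.

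The size of the difference varied within the list, and Mki67, Mad2l1 and Anln were picked here after their values were seen. Ccna2, the cyclin that partners CDK1 and CDK2, rose by 3.60 ± 0.26 in control and 3.02 ± 0.27 in deleted stroma, a difference of -0.58 ± 0.38. The proliferation marker Mki67 stood at 15.5 and 20.7 CPM in control estradiol and 9.90 and 15.7 in deleted estradiol, so its genotypes overlapped. Mad2l1, a spindle checkpoint protein, and Anln, a cytokinesis protein, were the 2 members above 0. Anln had 1 and 2 reads in deleted oil but 2 and 15 in control oil, so its response rests on few reads.

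The same list read by treatment shows where the difference lay. Over the list, the mean log2 CPM was 1.80 and 1.82 in control oil, 2.0 and 1.90 in deleted oil, 4.17 and 4.26 in control estradiol, and 3.35 and 3.67 in deleted estradiol. The genotypes were close in oil and apart after estradiol. The median deletion effect was 0.14 in oil, with 24 of 39 members above 0 (against 48.5% of all genes), and -0.74 after estradiol, with 37 of 39 below 0 (against 52.1%). After estradiol 21 of the 39 had an unadjusted p below 0.05, against 3.02% of all genes, and in oil 3 did, against 2.54%. No gene passed the adjusted test for deletion in either treatment. The deletion effects and the difference of response are built from the same libraries and are not separate evidence.

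**Figure D4:**
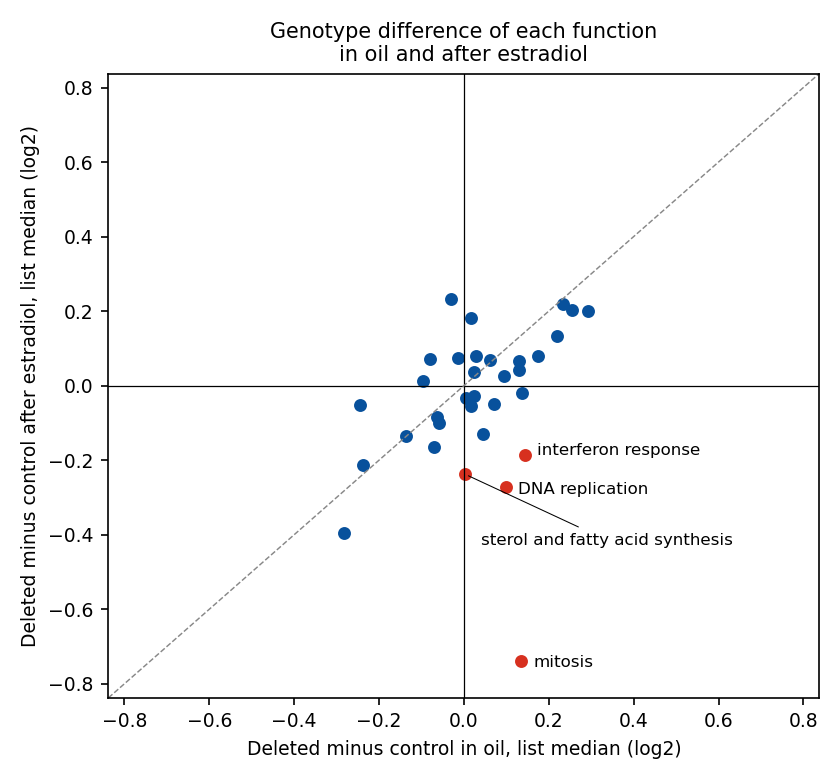
Median deletion effect (deleted minus control, log2) of each of 33 function lists in oil (horizontal axis) and after estradiol (vertical axis), with the dashed line of equal effects. The mitosis list lies at 0.14 in oil and -0.74 after estradiol, away from the other lists, and 3 further lists discussed in the text are labelled.

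Of the 8 libraries, deleted estradiol library 1 had the lowest mitosis level among the estradiol libraries, and without it the median difference of the mitosis list was -0.58. Summed markers of epithelium, a cell type that also divides after estradiol, were 1717 and 3346 CPM in control estradiol and 1746 and 2240 in deleted estradiol, so the sums overlapped, although 21 of 23 of these markers had a deletion effect below 0 after estradiol (median -0.37). Their part in the mitosis difference was not tested. In bulk RNA, fewer dividing cells and less transcript in each dividing cell cannot be told apart.

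DNA replication genes came next, at a smaller size. Estradiol raised 29 of 40 in control and 22 of 40 in deleted stroma (against 15.8% and 13.1% of all genes) and lowered none. Their median difference was -0.42, with 35 of 40 below 0, 3 at an unadjusted p below 0.05 (7.50%, against 0.884% of all genes) and 9 with ranges apart and lower (22.5%, against 6.13%). The median was -0.65 without control oil library 2 and -0.31 without control oil library 1.

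E2f1, a transcription factor of the G1 to S transition, was at 4.26 and 4.43 CPM in control oil and 8.22 and 7.25 in deleted oil. After estradiol it reached 38.3 and 42.6 CPM in control and 34.9 and 41.7 in deleted stroma. The estradiol levels thus overlapped between genotypes and the oil levels did not, and the difference of -0.91 ± 0.31 came with a higher starting level. Pold1, the catalytic subunit of DNA polymerase delta, had 6.31 and 9.38 CPM in control oil and 17.7 and 15.8 in control estradiol, but 10.4 and 12.4 (oil) and 11.2 and 11.6 (estradiol) in deleted stroma. It rose in control stroma by 1.10 ± 0.28, and the value in deleted stroma was -0.00 ± 0.28. Tk1, the thymidine kinase of S phase, rose in both genotypes, by 4.58 ± 0.40 and 3.23 ± 0.36, with a difference of -1.35 ± 0.56. In oil Tk1 had few reads, 7 and 5 in control and 18 and 8 in deleted stroma.

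G1 regulators as a list showed no shift of the median, with a median difference of -0.00 and 11 of 22 members below 0. Among them 2 had an unadjusted p below 0.05, both with a lower response (9.09%, against 0.884% of all genes). Response ranges lay apart and lower for 4 of the 22 (18.2%, against 6.13% of all genes) and apart and higher for 0 (against 4.92%). Cdkn1c, a CDK inhibitor, fell in both genotypes, by 1.65 ± 0.20 on the log2 scale in control and from 88.2 and 98.8 to 16.7 and 19.4 CPM in deleted stroma, a difference of -0.72 ± 0.28. Ccne1, the cyclin that starts S phase with CDK2, rose in control stroma by 1.97 ± 0.38 and stood at 0.79 ± 0.35 in deleted stroma, a difference of -1.18 ± 0.51. After estradiol Ccne1 had 6.84 and 7.07 CPM in control and 6.84 and 6.31 in deleted stroma (deletion effect -0.08). In oil it had 1.42 and 2.12 CPM, on 9 and 12 reads, in control and 3.48 and 4.10 in deleted stroma. The difference of response for Ccne1 thus came with a higher starting level. Cdkn1a, another CDK inhibitor, had nearly equal responses of -1.22 ± 0.16 and -1.17 ± 0.16.

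Sterol and fatty acid synthesis genes had a median difference of -0.27, with 29 of 34 below 0 and 10 with ranges apart and lower (29.4%, against 6.13% of all genes). Estradiol raised 24 of 34 in control and 21 of 34 in deleted stroma (against 15.8% and 13.1% of all genes) and lowered none. An unadjusted p below 0.05 was found for 3 members, all with a lower response (8.82%, against 0.884% of all genes). They were Stard4, a carrier of cholesterol between membranes, Insig1, which restrains sterol synthesis, and Fdps, which makes farnesyl diphosphate. Their differences were -1.05 ± 0.41, -0.70 ± 0.27 and -0.99 ± 0.41. The deletion effect of Stard4 was 0.81 in oil, on 24 to 63 reads per library, and -0.24 after estradiol. For Fdps it was 0.56 and -0.43, and for Insig1 0.05 and -0.65. Fdps was named after its value was seen for the difference. Insig1 stood at 68.0 and 62.1 CPM in control oil and rose to 103 and 113 after estradiol, while in deleted stroma it had 58.5 and 76.1 in oil and 63.0 and 74.9 after estradiol. Its control estradiol libraries were thus above all other libraries. Sqle, squalene epoxidase, rose by 3.09 ± 0.25 in control and 2.55 ± 0.24 in deleted stroma. Without control oil library 2 the list median was -0.16.

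Interferon response genes had a median difference of -0.31, with 30 of 36 below 0, but 0 had an unadjusted p below 0.05 and 3 had ranges apart and lower (8.33%, near the 6.13% of all genes). Estradiol raised 4 and lowered 1 of the 36 in control stroma, against 15.8% and 14% of all genes, and raised 1 and lowered 2 in deleted stroma, against 13.1% and 11.2%. Tap1, which carries peptides for antigen presentation, differed by -0.83 ± 0.42 and Usp18, a brake on interferon signalling, by -1.16 ± 0.60. The list median was -0.05 without control oil library 1 and also -0.05 without deleted oil library 2. It was -0.52 without control oil library 2 and -0.49 without deleted oil library 1.

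Several functions of energy and protein metabolism had list medians near 0. Respiratory chain genes were raised in 37 of 40 cases in control and 34 of 40 in deleted stroma, against 15.8% and 13.1% of all genes. Their median difference was -0.07. For Cox7b, a subunit of cytochrome c oxidase, the responses were 1.66 ± 0.19 and 1.59 ± 0.18. Mitochondrial ribosome genes had a median difference of -0.08, and Mrpl12 rose by 1.96 ± 0.22 and 1.80 ± 0.22. Proteasome genes (median -0.01) included Psmd2, at 0.94 ± 0.16 and 1.0 ± 0.16, and genes of the endoplasmic reticulum (median 0.02) included the translocon subunit Sec61b, at 2.23 ± 0.25 and 2.17 ± 0.25. Cytosolic ribosome genes had a median difference of -0.02. Of these genes, estradiol raised 1 of 40 in each genotype, against 15.8% and 13.1% of all genes. None of these lists had a member at an unadjusted p below 0.05 in either direction.

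Collagen genes were raised in 14 of 25 cases in control and 16 of 25 in deleted stroma, against 15.8% and 13.1% of all genes. Their median difference was -0.15, with 0 members at an unadjusted p below 0.05. Col1a1, the main fibrillar collagen chain, had 39.6 and 48.7 CPM in control oil and 42.7 and 61.3 in deleted oil. Its responses were 5.13 ± 0.31 in control and 5.25 ± 0.32 in deleted stroma. Serpinh1, the collagen chaperone, rose by 2.69 ± 0.22 and 2.43 ± 0.21, and the matrix protein Spon1 by 3.84 ± 0.30 and 4.46 ± 0.31. Loxl1, an elastin cross-linking enzyme, differed by -0.75 ± 0.35 and fibronectin, Fn1, by 0.44 ± 0.22. In oil Loxl1 had 6.15 and 7.44 CPM in control and 12.3 and 13.9 in deleted stroma. After estradiol it had 42.7 and 29.0 CPM in control and 41.6 and 40.6 in deleted stroma, which overlapped.

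Early response genes encode transcription factors and feedback regulators. Estradiol lowered 21 of 40 in each genotype, against 14% of all genes in control and 11.2% in deleted stroma. Their median difference was -0.02. Klf2, a transcription factor, had 462 and 499 CPM in control oil, 533 and 564 in deleted oil, 205 and 176 in control estradiol and 176 and 170 in deleted estradiol. It fell in both genotypes, and its estradiol levels lay close. Heat shock genes had a median difference of 0.10, and the small heat shock protein gene Hspb1 had responses of -1.39 ± 0.20 and -1.68 ± 0.20. Clock genes had a median difference of -0.07, and the responses of Cry2, a repressor of the clock, were -1.65 ± 0.23 and -1.68 ± 0.23. Glycolysis and hypoxia genes had the highest list median, 0.11, and Slc2a3, a glucose transporter, responded by -1.56 ± 0.19 and -1.42 ± 0.18.

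Estrogen receptor pathway genes as a list showed a median difference of -0.02. The progesterone receptor, Pgr, a direct estrogen target, had 194 and 200 CPM in control oil, 220 and 277 in deleted oil, 383 and 338 in control estradiol and 347 and 416 in deleted estradiol. Its estradiol libraries were above its oil libraries in both genotypes, with responses of 0.87 ± 0.19 (adjusted p = 0.00961 in edgeR) and 0.62 ± 0.19 (adjusted p = 0.0405). The call in deleted stroma was lost without any single library of deleted oil, deleted estradiol or control estradiol, with adjusted p from 0.0614 to 0.223, and the call in control stroma was lost without control estradiol library 1 (adjusted p = 0.0702). Hsd11b2, which inactivates glucocorticoids, rose by 5.58 ± 0.42 and 5.34 ± 0.40.

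In this receptor list, 2 of 21 members had an unadjusted p below 0.05, both with a higher response in deleted stroma (9.52%, against 0.689% of all genes). Pgrmc1, a membrane heme-binding protein linked to progesterone signalling, had 79.7 and 96.1 CPM in control oil and 73.2 and 56.6 in control estradiol. In deleted stroma it had 71.6 and 73.1 in oil and 105 and 83.8 after estradiol, so the direction differed between genotypes, with a difference of 0.82 ± 0.29. Hsd17b11, a steroid and lipid dehydrogenase, fell in control stroma from 552 and 516 to 369 and 310 CPM, while in deleted stroma it had 452 and 488 in oil and 469 and 417 after estradiol. Its difference was 0.57 ± 0.25.

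The list of IGF axis genes had a median difference of -0.04. Igf1, the growth factor through which stroma is known to act on epithelium, rose by 3.15 ± 0.26 and 3.21 ± 0.26, and its receptor Igf1r responded by -1.93 ± 0.18 and -2.09 ± 0.19. Irs1, an adaptor of insulin and IGF receptors, differed by -0.75 ± 0.35, and Igfbp2, an IGF-binding protein, by -1.07 ± 0.69. The list of FGF, EGF, BMP and TGF-beta family genes had a median difference of -0.01. An unadjusted p below 0.05 was found for 1 of 39 members, with a higher response (2.56%, against 0.689% of all genes). That gene was Hgf, hepatocyte growth factor, with 0 reads in both deleted oil libraries against 6 and 3 in the control ones, and after estradiol 4 and 13 reads in deleted against 15 and 9 in control stroma, too few for a fold change. Bmpr1b, a BMP receptor, differed by -1.36 ± 0.71 on 4 to 30 reads per library. In the Wnt list (median difference 0.06) the secreted inhibitor Wif1 responded by -6.24 ± 0.42 and -5.72 ± 0.41, and the ligand Wnt5a by 2.38 ± 0.28 and 2.24 ± 0.27. The ligand Wnt6 and the Wnt5a receptor Ror2 were the 2 of 32 members with an unadjusted p below 0.05, both higher in deleted stroma (6.25%, against 0.689%). Wnt6 fell in control stroma from 12.0 and 6.73 to 0.559 and 0.768 CPM and in deleted stroma from 6.01 and 4.88 to 1.44 and 2.26 CPM, a difference of 2.25 ± 0.71. Few reads underlie the Wnt6 levels after estradiol, above all in control stroma. The difference for Ror2 was 0.79 ± 0.33.

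Stromal receptivity and decidual genes had a median difference of -0.05. Hhip, a hedgehog inhibitor, rose by 3.03 ± 0.49 and 4.72 ± 0.53, from 1 to 6 reads in each oil library, a difference of 1.68 ± 0.79. Msx2, a homeobox factor, differed by 1.28 ± 0.59. The vascular permeability list had a median difference of -0.07, and Plvap, a protein of endothelial fenestrae, rose by 2.54 ± 0.25 and 2.21 ± 0.25. Among secretory estrogen targets (median -0.11), Lcn2, an iron-binding secreted protein, rose by 5.0 ± 0.32 and 5.66 ± 0.35.

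Autophagy core genes had a median difference of 0.10 over 33 members and autophagy receptor genes of -0.03 over 16, with 0 members of either at an unadjusted p below 0.05. For Atg7 itself the 2 oil libraries of control stroma held 22 and 32 reads and those of deleted stroma 21 and 33. The estradiol libraries held 20 and 23 reads in control and 23 and 22 in deleted stroma. Its levels overlapped in all groups and the difference was 0.38 ± 0.61. The kit samples only transcript 3′ ends, and loss of exons further upstream need not lower these counts. They therefore do not check the genotype. Amhr2, the driver of Cre, had 0 to 20 reads per library.

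Map1lc3b, which encodes the membrane protein LC3B that ATG7 activates, had 270 and 312 CPM in control oil, 296 and 328 in deleted oil, 152 and 169 in control estradiol and 159 and 166 in deleted estradiol. The genotypes overlapped in both treatments. The autophagy receptor Sqstm1, or p62, had 906 and 889 CPM in control oil, 884 and 794 in deleted oil, 397 and 384 in control estradiol and 366 and 423 in deleted estradiol, with responses of -1.20 ± 0.17 and -1.09 ± 0.17. Without deleted estradiol library 1 the adjusted p for Sqstm1 in deleted stroma was 0.0561, and for Map1lc3b it was 0.0686. The call for Map1lc3b was also lost in deleted stroma without deleted estradiol library 2 (adjusted p = 0.0524) and in control stroma without control estradiol library 1 (adjusted p = 0.0659). Ulk1, the kinase that starts autophagy, differed by 0.76 ± 0.41.

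Lysosome genes had a median difference of 0.09, and Mitf, a transcription factor of lysosome and pigment genes, responded by -2.80 ± 0.20 and -2.29 ± 0.19, a difference of 0.51 ± 0.27. The NRF2 and glutathione list had a median of 0.05, with 3 of 39 members at an unadjusted p below 0.05 and a higher response (7.69%, against 0.689%). They include the glutathione transferases Gsta2 and Gsta3, which have few reads and close relatives, so reads may be divided between copies. Gsta2 had 2 to 4 reads in each library other than those of deleted estradiol, which had 17 and 13. The third is Srxn1, a peroxiredoxin reductase, named after its value was seen. Gstm1, a glutathione transferase, differed by 0.49 ± 0.22, and Gstm7 responded by -4.61 ± 0.38 and -3.80 ± 0.37.

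Over the whole transcriptome, 15 genes with the smallest p-values for a lower response and a group mean of at least 10 CPM were Paox, Cdk1, Ube2c, Knstrn, Top2a, Racgap1, Icos, Rcsd1, Pbk, Hist1h2ag, R3hcc1, Nme2, Ddx41, Selm and Shmt2. Their differences ran from -2.96 ± 0.66 for Knstrn, a spindle protein, to -0.84 ± 0.27 for Shmt2, the mitochondrial serine hydroxymethyltransferase. The Knstrn estimate rests on few reads in oil, 2 and 4 in control and 11 and 16 in deleted stroma. For all 15, the response ranges of the genotypes lay apart, which their choice by p favours, and none passed the adjusted test.

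Paox (chromosome 7, 140115799 to 140137224, plus strand), a polyamine oxidase, had the smallest p of them. It had 5.05 and 7.97 CPM in control oil and 25.6 and 38.7 in control estradiol, against 14.5 and 9.61 (oil) and 12.2 and 12.3 (estradiol) in deleted stroma. It rose in control stroma by 2.31 ± 0.34, and the value in deleted stroma was 0.02 ± 0.33. Pbk, a mitotic kinase outside the mitosis list, had 4 to 17 reads in each oil library and a difference of -1.72 ± 0.52. Hist1h2ag, a replication-dependent histone gene with near-identical copies, differed by -1.75 ± 0.55, and its reads may be shared with those copies.

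Nme2, a nucleoside diphosphate kinase, was the most abundant of the group after estradiol, at 587 and 722 CPM in control and 376 and 387 in deleted stroma. In oil it had 137 and 221 CPM in control and 224 and 209 in deleted stroma, which overlapped, and the difference was -1.06 ± 0.33. Icos, a T cell costimulatory receptor, and Rcsd1, an actin-capping regulator of blood cells, also had lower estimates in deleted stroma. Icos stood at 5.36 and 5.31 CPM in control oil, 10.1 and 10.7 in deleted oil, 5.59 and 6.30 in control estradiol and 4.50 and 2.59 in deleted estradiol, so the deleted libraries were the highest in oil and the lowest after estradiol. It fell in deleted stroma by 1.56 ± 0.35 and its control value was 0.15 ± 0.34.

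**Figure D5:**
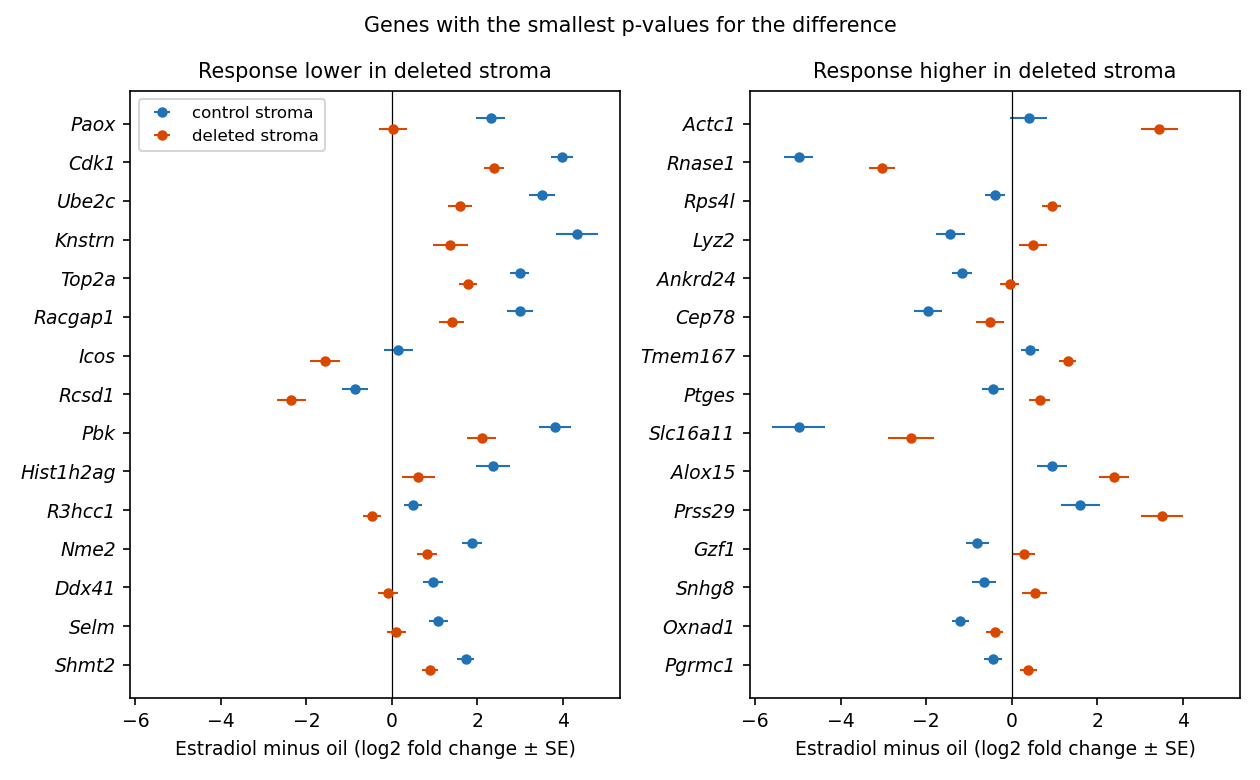
Estradiol response (log2 fold change ± SE) in control and Atg7-deleted stroma of the 15 genes with the smallest p-values in each direction. On the left, Paox stands at 2.31 in control and 0.02 in deleted stroma. On the right, Actc1 stands at 0.39 and 3.45, and several genes, among them Rnase1 at -4.99 and -3.04, are lowered in both genotypes but less in deleted stroma.

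The 15 genes with the smallest p-values for a higher response were Actc1, Rnase1, Rps4l, Lyz2, Ankrd24, Cep78, Tmem167, Ptges, Slc16a11, Alox15, Prss29, Gzf1, Snhg8, Oxnad1 and Pgrmc1. Their differences ran from 0.80 ± 0.28 for Oxnad1 to 3.06 ± 0.62 for Actc1, and their response ranges also lay apart. They differ in kind: for Actc1 and Alox15 the estimate was a larger rise, and for Rnase1 and Slc16a11 it was a smaller fall.

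Actc1 (chromosome 2, 114047282 to 114053548, minus strand), the cardiac muscle actin, had 1.58 and 2.12 CPM in control oil, 0.948 and 1.42 in deleted oil, 1.96 and 2.92 in control estradiol and 11.9 and 14.4 in deleted estradiol. The deleted estradiol libraries stood above the 6 others, and the response in deleted stroma was 3.45 ± 0.43. Summed smooth muscle markers were 14705 and 16350 CPM in control estradiol and 15361 and 17686 in deleted estradiol. The part of muscle cells in the Actc1 difference was not tested.

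Alox15 and Ptges belong to the list of chemokine and inflammatory mediator genes, which as a whole had a median difference of -0.19. Of its 44 members, 27 lay below 0 (61.4%, against 51.1% of all genes). Response ranges lay apart and lower for 5 (11.4%, against 6.13%) and apart and higher for 3 (6.82%, against 4.92%). Alox15 (chromosome 11, 70344152 to 70352031, minus strand), a lipoxygenase, had 11.8 and 8.32 CPM in control oil, 11.1 and 5.51 in deleted oil, 15.6 and 23.1 in control estradiol and 42.3 and 44.8 in deleted estradiol, a difference of 1.46 ± 0.49. Ptges (chromosome 2, 30889471 to 30929863, minus strand), a prostaglandin E synthase, had 20.8 and 19.7 CPM in control oil, 19.1 and 21.4 in deleted oil, 17.3 and 12.4 in control estradiol and 37.6 and 26.0 in deleted estradiol, a difference of 1.09 ± 0.36. For both, the deleted estradiol libraries were the highest of the 8. They are the 2 of 44 list members with a higher response at an unadjusted p below 0.05 (4.55%, against 0.689% of all genes), and 1 member (2.27%, against 0.884%), Cxcl5, a neutrophil chemokine named after its value was seen, had a lower response.

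Rnase1, a secreted ribonuclease, fell from 25.9 and 26.4 to 0.838 and 0.768 CPM in control stroma and from 19.4 and 17.0 to 1.80 and 2.59 CPM in deleted stroma, a difference of 1.95 ± 0.46. Its estradiol values rest on 5 to 16 reads per library. Slc16a11, a transporter of the monocarboxylate family, rests on 2 to 12 reads in each estradiol library, with a difference of 2.62 ± 0.88. Lyz2, the lysozyme of macrophages, fell in control stroma from 44.0 and 50.1 to 19.8 and 14.9 CPM, while deleted stroma had 24.5 and 36.6 in oil and 56.7 and 29.4 after estradiol. The difference was 1.93 ± 0.47, while the other 14 macrophage markers had an unadjusted p above 0.05 and the list median was -0.02 (-0.33 without control oil library 1 and 0.30 without control estradiol library 1). The 15 macrophage markers had a median deletion effect of 0.30 in oil and 0.55 after estradiol, and they summed to 365 and 294 CPM in deleted estradiol against 261 and 220 in control estradiol. Their part in the Lyz2 difference was not tested. Prss29, an implantation serine protease of uterine glands, rose in both genotypes, by 1.60 ± 0.46 and 3.52 ± 0.49. Rps4l is a ribosomal protein gene with close copies, so its difference of 1.33 ± 0.32 may hold reads of other copies.

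Markers of other cell types differed between libraries, and their part in the differences above was not tested. The 23 tested epithelium markers summed to 18912 and 6486 CPM in control oil, 11831 and 5085 in deleted oil, 1717 and 3346 in control estradiol and 1746 and 2240 in deleted estradiol, with no marker at 0 in any library. Library 1 was the higher in oil and the lower after estradiol in both genotypes. The sums overlapped between genotypes in oil and after estradiol. Gene by gene, most of these markers were lower in deleted stroma: the median deletion effect was -0.55 in oil, with 1 of 23 above 0, and -0.37 after estradiol, with 21 of 23 below 0. The median difference of these markers was 0.13, with 0 members at an unadjusted p below 0.05 and 0 with ranges apart. That median was -0.59 without control oil library 1 and 0.77 without deleted oil library 1.

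Smooth muscle markers summed to 10134 to 11798 CPM in the oil libraries and 14705 to 17686 in the estradiol libraries, with a median difference of -0.39 and 13 of 15 below 0, again with 0 members at an unadjusted p below 0.05. That median was 0.07 without control oil library 1 and -1.0 without control oil library 2. Endothelium markers had a median of -0.25 over 20 genes, and Vwf, a clotting factor carrier of endothelium, differed by 1.12 ± 0.56 in the opposite direction. Pericyte markers had a median of -0.30 over 9 genes, with Mcam, an adhesion molecule of pericytes, at -0.68 ± 0.24 as the single member at an unadjusted p below 0.05. Mcam stood at 49.7 and 46.3 CPM in control estradiol and at 32.6 and 32.5 in deleted estradiol. Leaving out control oil library 1 turned the pericyte median to 0.22 and the endothelium median to 0.04, and leaving out control oil library 2 gave -0.68 and -0.51. Fibroblast markers had a median of -0.10 over 14 genes (0.16 when control estradiol library 1 was left out, -0.35 when library 2 was), among them Thy1, a surface protein, at -0.62 ± 0.31. Lymphocyte markers summed to 9.54 to 35.0 CPM, granulocyte markers to 7.07 to 31.8 CPM and mast cell markers to 22.2 to 74.6 CPM, too low for a description of each gene.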

How the data were processed

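RNA of 8 libraries of uterine stromal cells was measured, 2 in each group. Per the labels, 500 ng of total RNA went into a 3′ end library kit. The authors deposited raw counts per gene symbol, and Bowtie2, edgeR and mm10 are named in the submitters' processing notes. For the counter, strand setting and annotation: not given in the sources used here. Files listed 23282 lines for 23238 symbols, and for 35 repeated symbols only the line of highest total was used (0.0973% of counts were left out). Genes passed filterByExpr (minimum count 10, minimum total 15). Scaling was TMM. The quasi-likelihood test of edgeR 4.0.16, under R 4.3.3, used 1 model with 4 group means, 4 residual and 5.08 prior degrees of freedom, and Benjamini-Hochberg adjustment over all 13347 genes at 0.05. The biological coefficient of variation was 21.8%. CPM are scaled with TMM factors, and no length correction was made. The model was tested on simulated data. DESeq2 1.42.0 and limma 3.58.1, other filters and scalings, and fits without each library were alternatives. GENCODE M21 (mm10) gave gene coordinates, and 22159 symbols matched it.

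The 33 function lists and 11 marker lists (1214 genes, 1124 tested) and the named genes were chosen with earlier results of these data known. Named were Atg7 and Amhr2, in each direction the 15 genes with the smallest unadjusted p and a group mean of at least 10 CPM (predicted genes, mitochondrial transcripts and ribosomal pseudogenes passed over), and for each list 2 genes by p for the difference and 2 by p for the average estradiol effect, of which those the text turns on are given.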

Additional observations from a re-analysis of the deposited data

How the results depend on the processing

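The number of genes called for the difference was 0 under all 18 alternatives, and the median difference of the mitosis list stayed below 0 in all of them, from -0.99 without control oil library 1 to -0.58 without deleted estradiol library 1. The number of mitosis genes at an unadjusted p below 0.05 with a lower response ran from 4 to 14 when single libraries were left out and was 5 with a mean of at least 10 CPM. Calls for estradiol ran from 1505 to 4168 in control stroma and from 740 to 4345 in deleted stroma without single libraries. The cause was not tested, beyond the fewer libraries or genes in these fits, and a group left with a single library is assumed to vary like the others. Of the 33 function lists, 6 kept a median below 0 in all 18 alternatives (mitosis, DNA replication, sterol and fatty acid synthesis, interferon response, complement and circadian clock), 1 kept a median above 0 (glycolysis and hypoxia), and 26 changed sign in at least 1. Of the marker lists, the medians of fibroblast, epithelium, smooth muscle, pericyte, endothelium and macrophage markers changed sign without single libraries. For the single genes given, 0 of 1151 alternative differences passed the adjusted test and none changed direction, and 817 of 828 alternative responses kept call and direction.

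No label says that a replicate number marks a shared animal, litter or day, and the numbers were not taken as pairs. The deviations of same-numbered libraries correlated at -0.23 (control oil with control estradiol), 0.49 (control oil with deleted oil), 0.23 (control estradiol with deleted estradiol), and -0.17, -0.03 and -0.01 for the other 3 of the 6 pairs of groups, so they were above 0.1 for both pairs of the same treatment and below 0 for the rest. With the replicate number as a block, calls were 0 for the difference, 4094 for control and 3423 for deleted stroma. The mitosis list then had a median of -0.82 and 8 genes at an unadjusted p below 0.05. The share of all genes at that p in the block fit is not given here. Depth limits genes with few reads, and counts of 2 libraries per group limit every difference to a median standard error of 0.41.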
